A study of Mus musculus with 12 samples.

Results

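Hepatocytes secrete most of the acute phase and complement proteins of blood, and 43 of their genes were followed in term fetal liver of the mouse. The 43 were a fixed list of serum amyloids, pentraxins, metal carriers, protease inhibitors, complement components and the STAT3 signalling genes. Of these, 41 were measured among 19938 genes, each by a probeset naming a single gene, whereas *C3* and *Cfd* were not analysed here. *C1s* carries the array's name *C1s1* and *C5* the name *Hc*. Livers of 6 *Ppara*-/- fetuses were compared with livers of 6 *Ppara*+/+ fetuses, all taken by cesarean section at E19.5 after heterozygous parents had been mated. The whole liver was used. *Ppara* encodes PPARα, a nuclear receptor activated by fatty acids, and the null allele was carried in every cell from conception. The labels give the strain as SV129 and the study's methods as C57BL/6. No fetus was treated, each array held the RNA of 1 liver, and the livers came from fewer litters than there were livers, with the litter of each not given in the labels. The p-values therefore measure the spread between these livers and make no allowance for shared litters.

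The acute phase response is the change in liver secretion that follows infection or injury. Interleukin-6 acts on hepatocytes through gp130 and STAT3, and interleukin-1 acts through NF-κB, often together with C/EBP factors. Complement is a cascade of plasma proteases started by antibody through C1 (the classical pathway), by sugar-binding lectins, or spontaneously on surfaces (the alternative pathway). All routes meet at C3 and end in C5 to C9, which form a pore in the target membrane. In adult liver, ligands of PPARα are known to damp the acute phase response.

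Values are log2 signals, and a difference is *Ppara*-/- minus *Ppara*+/+, so that a difference of 1 is a doubling. A gene is called higher or lower where the p-value of limma, a linear model fitted to all genes together, stayed under 0.05 after Benjamini-Hochberg adjustment over all 19938 genes. The array medians lay between 6.71 and 6.75. *Ppara* itself was lower by 1.01 (adjusted p = 3.6e-08), with all 6 *Ppara*-/- livers below all 6 *Ppara*+/+ livers. None of 10 hepatocyte markers was called by limma (0 at an unadjusted p under 0.05), where 7.24% of all genes were called. Their mean signal was 12.78 in *Ppara*-/- and 12.77 in *Ppara*+/+ livers. By their *Xist* and Y-linked signals, 5 of the *Ppara*-/- fetuses were female and 1 was male, against 3 and 3 in *Ppara*+/+.

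Most acute phase and complement genes were not called between the genotypes, and the calls that were made fell among complement components. Of the 41 genes, 4 were higher in *Ppara*-/- livers (*C2*, *C1s*, *C8g* and *C9*), where 3.42% of all genes were higher. *Mbl1* alone was lower, where 3.82% of all genes were lower. The other 36 were not called, which does not show them to be unchanged. An unadjusted p under 0.05 was found in 18 of the 41, a larger share than the 4164 of all 19938 genes. In 3 of the 41 genes (*C2*, *C1s* and *Masp1*) the lowest *Ppara*-/- liver still exceeded the highest *Ppara*+/+ liver, which held for 1.3% of all genes. The reverse held for *Mbl1* alone and for 2.29% of all genes. The median difference of the 41 was 0.02, against 0.01 over all genes. Of the 41 differences 25 were above 0, as were 10670 of the 19938 over all genes. In whole liver, fewer cells of a type and less RNA per cell cannot be told apart.

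**Figure D1:**
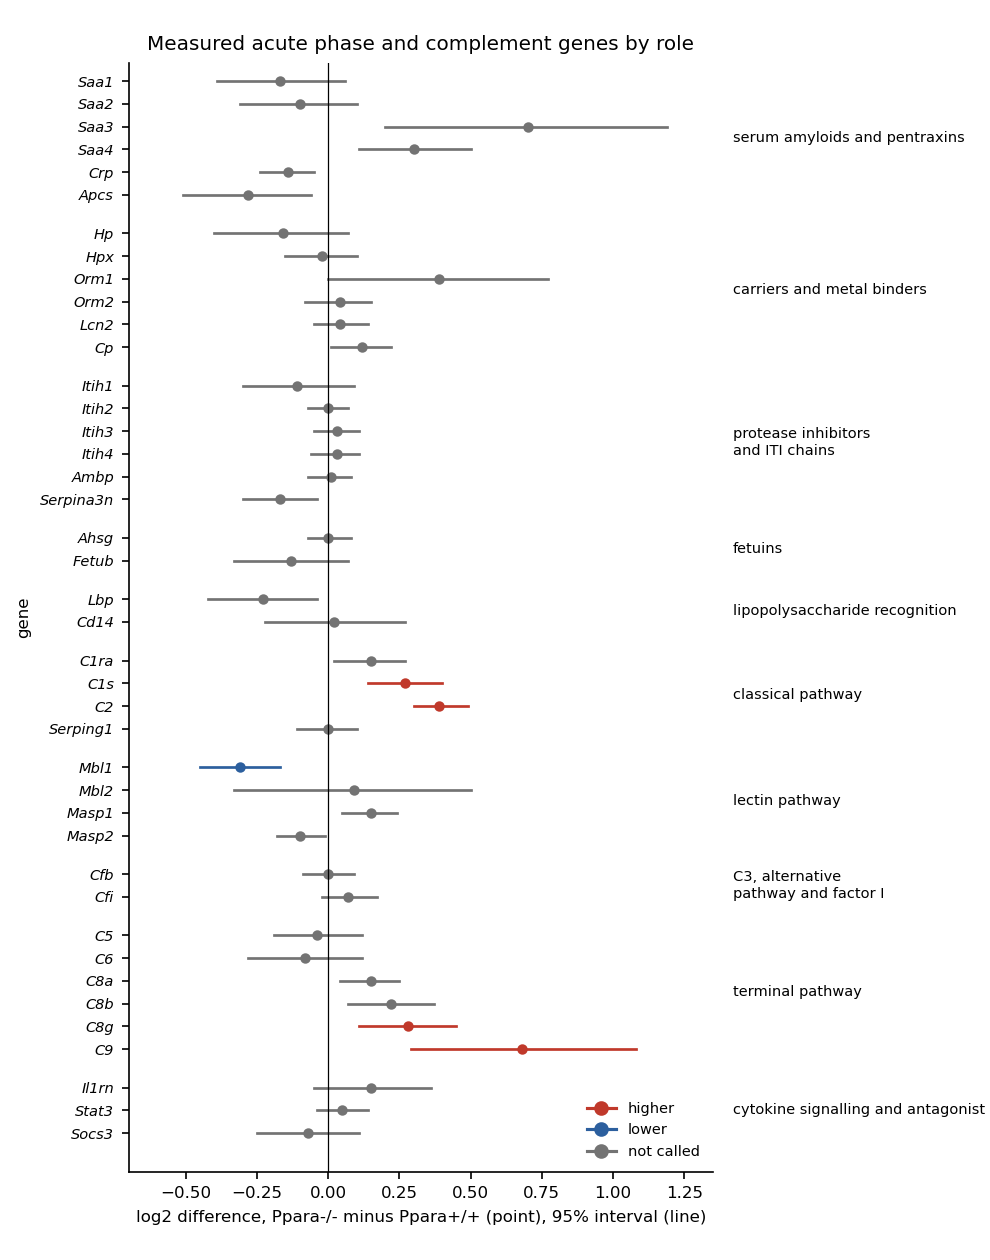
Log2 difference of each of the 41 measured genes (x axis, *Ppara*-/- minus *Ppara*+/+, 6 livers each) grouped by role (y axis), with points for the limma estimate and lines for its 95% interval. The 4 genes called higher and the 1 called lower are all complement genes, and *Saa3*, *Saa4*, *C8b*, *C8a* and *Masp1* are among the genes with intervals above 0 that were not called.

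The classical pathway held the clearest difference. *C2* encodes the protease that, cleaved by C1s, joins C4b to form the C3 convertase. Its signal ran from 8.99 through a median of 9.13 to 9.17 in *Ppara*+/+ livers and from 9.43 through 9.49 to 9.62 in *Ppara*-/- livers. The genotypes did not overlap, and livers of either genotype lay close together. The difference was 0.39 ± 0.05 (SE, n = 6 per genotype), a 1.31-fold higher signal (adjusted p = 9.9e-05). *C1s*, the protease of the C1 complex, ran from 10.54 through 10.80 to 10.89 in *Ppara*+/+ and from 10.95 through 11.01 to 11.15 in *Ppara*-/- livers. The genotypes again did not overlap, although *Ppara*+/+ mice 5 and 6 held the lowest values and the other livers were nearer together. *C1s* was higher by 0.27 ± 0.06 (SE), or 1.21-fold (adjusted p = 0.016). *C1ra* encodes the partner protease that activates C1s and is the next gene to *C1s* on chromosome 6. It differed by 0.15, with a 95% interval of 0.02 to 0.27, and was not called (adjusted p = 0.15). *Serping1*, the C1 inhibitor that restrains both proteases, differed by 0.00, with an interval of -0.11 to 0.10. *C2* lies beside *Cfb* on chromosome 17, the gene for the corresponding protease of the alternative pathway. *Cfb* differed by 0.00 (interval -0.09 to 0.09), so the neighbours had unlike differences, although the gap between them was not tested.

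*C2* and the C1 genes are also expressed by macrophages. Among 12 macrophage markers, *Csf1r* (0.23), *Cd5l* (0.40) and *Mpeg1* (0.18) were higher and *Fcgr1* (-0.25) was lower. Limma thus called 33.3% of these markers, against 7.24% of all genes, and 7 of the 12 had an unadjusted p under 0.05. The mean signal of the 12 markers ranged from 9.06 to 9.23 in *Ppara*-/- and from 9.02 to 9.15 in *Ppara*+/+ livers, and these ranges overlapped. Their part in the *C2* and *C1s* differences was not tested. Of the other marker lists, *Des* (-0.39) was lower and *Reln* (0.16) higher among 8 of stellate and stromal cells (25% called). Limma called 0 of 6 erythroid, 5 megakaryocyte and 8 endothelial markers (1, 0 and 2 at an unadjusted p under 0.05). The 3 *C1q* genes, which macrophages express strongly, were not called, and differed by 0.10 (*C1qa*, adjusted p = 0.27), 0.04 (*C1qb*, adjusted p = 0.72) and -0.07 (*C1qc*, adjusted p = 0.48).

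The lectin pathway showed the only lowered gene. *Mbl1* encodes mannose-binding lectin A, which recognises microbial sugars. It ran from 9.66 through 9.76 to 9.92 in *Ppara*+/+ livers and from 9.21 through 9.52 to 9.57 in *Ppara*-/- livers. The genotypes did not overlap, and *Ppara*-/- mouse 4 lay apart below the other livers. *Mbl1* was lower by 0.31 ± 0.07 (SE), a signal 1.24-fold lower (adjusted p = 0.011). *Mbl2*, the gene of mannose-binding lectin C, had wide and overlapping ranges, from 7.06 through 7.78 to 8.00 in *Ppara*+/+ and from 7.18 through 7.65 to 8.34 in *Ppara*-/- livers. Its difference was 0.09, with an interval of -0.33 to 0.50, so a change of either direction was not excluded. *Masp1*, a protease carried by these lectins, ran from 11.03 to 11.21 in *Ppara*+/+ and from 11.23 to 11.35 in *Ppara*-/- livers. It was described after its values were seen because its genotypes did not overlap, but at 0.15 it missed the threshold (adjusted p = 0.056). *Masp2*, the lectin-bound protease that cleaves C4 and C2, differed by -0.10 (adjusted p = 0.16).

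The terminal pathway had both remaining calls. *C9*, the subunit that polymerises into the pore, ran from 6.92 through 7.25 to 8.01 in *Ppara*+/+ livers and from 7.67 through 8.06 to 8.28 in *Ppara*-/- livers. The genotypes overlapped, because *Ppara*+/+ mice 5 and 6 (8.01 and 7.91) stood well above the other 4 and *Ppara*-/- mouse 1 (7.67) stood below its group. *C9* was higher by 0.68 ± 0.19 (SE), or 1.61-fold (adjusted p = 0.038). *C8g*, the lipocalin-like gamma chain of C8, ran from 10.59 through 10.80 to 11.06 in *Ppara*+/+ and from 10.92 through 11.12 to 11.16 in *Ppara*-/- livers. The same 3 livers made up the overlap. *C8g* was higher by 0.28 ± 0.08 (SE), or 1.21-fold (adjusted p = 0.043). *C8b*, the beta chain, ran from 12.23 through 12.34 to 12.58 in *Ppara*+/+ and from 12.46 through 12.62 to 12.68 in *Ppara*-/- livers. Here too only *Ppara*-/- mouse 1 fell within the *Ppara*+/+ range, and the difference of 0.22 was not called (adjusted p = 0.066). *C8a*, the alpha chain and the neighbour of *C8b* on chromosome 4, differed by 0.15 (adjusted p = 0.085). All 3 chains of C8 thus had intervals above 0, of which that of *C8g* alone went with a call. *C5*, the source of the C5a anaphylatoxin, differed by -0.04 (interval -0.19 to 0.12). *C6*, which had a signal below the median of every array, differed by -0.08 (interval -0.28 to 0.12). *Cfi*, the protease that inactivates C3b and C4b, differed by 0.07 (adjusted p = 0.40).

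**Figure D2:**
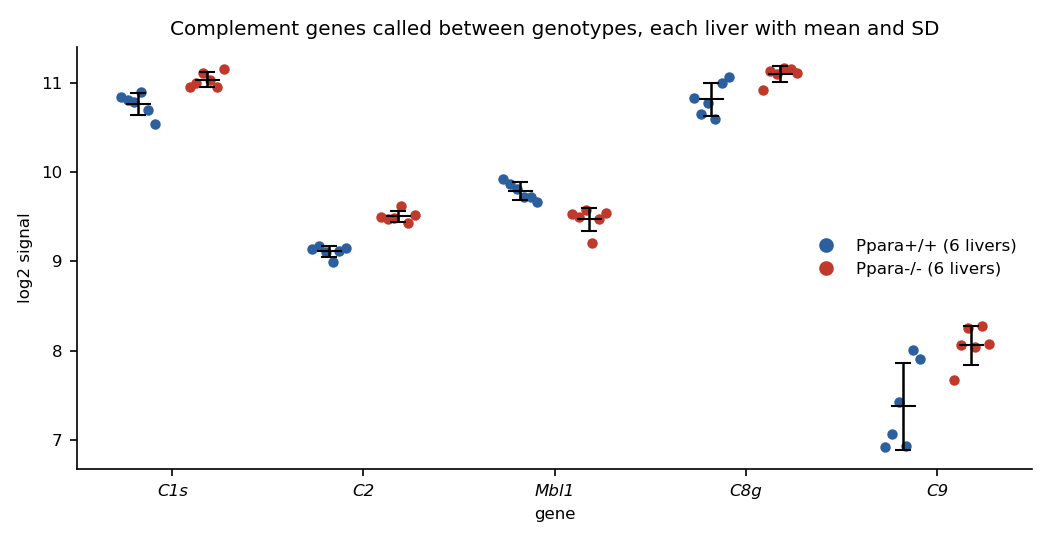
Log2 signal (y axis) of the 5 genes called between genotypes (x axis), with 1 point per liver and the mean and SD of the 6 *Ppara*+/+ and 6 *Ppara*-/- livers. *C1s*, *C2* and *Mbl1* do not overlap between genotypes, whereas *C8g* and *C9* overlap and have a wider spread in *Ppara*+/+ livers.

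The calls were not equally firm. *C2*, *C1s* and *Mbl1* were called in the main comparison and in all the other limma settings that used 11 or 12 livers, 21 in all. The adjusted p ranged from 1.4e-05 to 0.0028 for *C2*, from 0.0044 to 0.043 for *C1s* and from 0.0033 to 0.033 for *Mbl1*. *C8g* and *C9* were called in 10 of the 21 settings each. Both calls were lost without any 1 of *Ppara*-/- mice 2 to 6 or *Ppara*+/+ mice 1 to 4 (adjusted p of 0.067 to 0.10 for *C8g* and 0.066 to 0.091 for *C9*). The differences in those fits were 0.23 to 0.28 for *C8g* and 0.59 to 0.69 for *C9*, and between 384 and 498 genes in all were higher, against 682 with all livers. Both were also lost with fetal sex as a covariate, which left *C8g* at 0.22 (adjusted p = 0.12) and *C9* at 0.58 (adjusted p = 0.11), while *C2*, *C1s* and *Mbl1* stayed called.

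**Figure D3:**
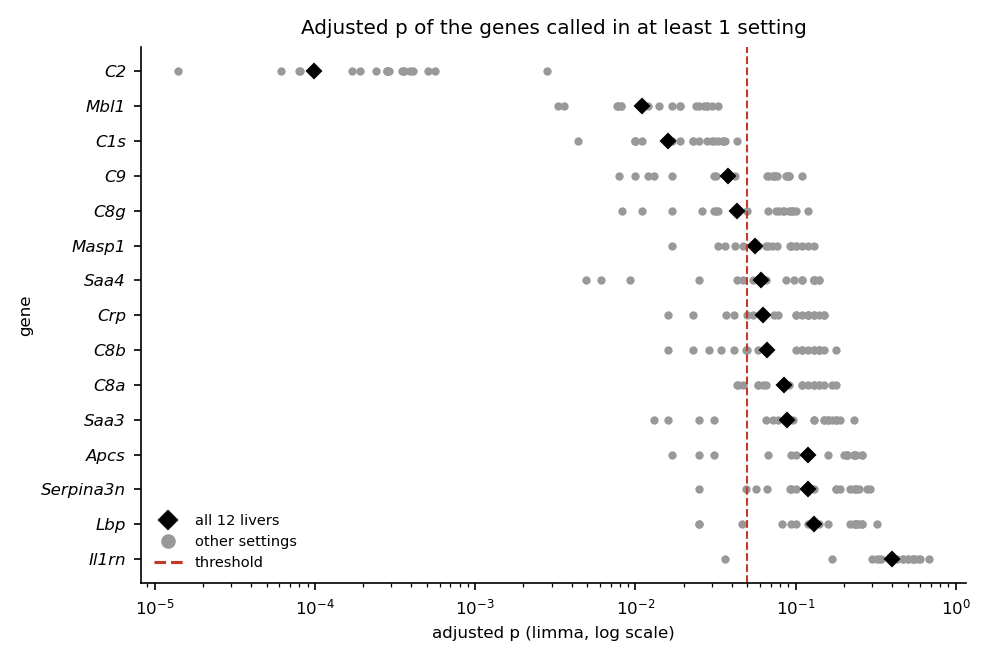
Adjusted p of limma (x axis, log scale) for each gene called in at least 1 setting (y axis), with a diamond for the comparison of all 12 livers, grey points for the other settings on 11 or 12 livers and a dashed line at 0.05. All points of *C2*, *Mbl1* and *C1s* lie left of the line, while those of the other genes fall on both sides of it.

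Sequences just before the transcription start are shown for *C9* and *C1s*, called genes that hold a C/EBP motif, and for *Mbl1*, the lowered gene, which holds none of the motifs searched. *C8g*, also called higher, held none of these motifs either and is not shown, and *C2* had no sequence to search. The sequences are the 250 bases before the start in RefSeq on GRCm38.p6, written 5′ to 3′ on the gene's strand, with a motif match in capitals. *C9* lies at chr15:6445096-6445345 on the plus strand, with its match at -132 to -125 from the start. The more upstream of the *C1s* windows lies at chr6:124542360-124542609 on the minus strand, with its match at -242 to -235 read on the opposite strand. *Mbl1* lies at chr14:41151206-41151455 on the plus strand.
C9: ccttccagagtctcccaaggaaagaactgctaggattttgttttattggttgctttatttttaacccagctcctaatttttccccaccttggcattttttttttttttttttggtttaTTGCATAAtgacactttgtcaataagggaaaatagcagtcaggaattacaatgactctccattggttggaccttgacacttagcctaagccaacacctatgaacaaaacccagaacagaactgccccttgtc
C1s: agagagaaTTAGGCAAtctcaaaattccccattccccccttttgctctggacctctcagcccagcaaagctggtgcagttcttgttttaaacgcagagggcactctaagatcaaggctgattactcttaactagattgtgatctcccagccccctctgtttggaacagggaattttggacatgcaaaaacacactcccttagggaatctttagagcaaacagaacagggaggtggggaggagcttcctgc
Mbl1: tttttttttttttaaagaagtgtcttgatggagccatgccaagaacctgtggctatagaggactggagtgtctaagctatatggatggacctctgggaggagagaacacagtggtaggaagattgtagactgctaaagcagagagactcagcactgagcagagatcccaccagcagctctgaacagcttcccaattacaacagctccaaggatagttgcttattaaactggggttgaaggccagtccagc

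Both strands of each window were searched for 4 motifs of the pathway. They were C/EBP (TTGCNNAA), STAT (TTCNNNGAA), the NF-κB motif of GGGA and TTCC with a pair of bases between, and a PPAR element of AGGTCA repeated after 1 base. Windows were found for 32 of the 41 genes, and none for *Hp*, *Orm1*, *Lbp*, *Cd14*, *C2*, *Serping1*, *Masp1*, *Cfb* and *Cfi*. The C/EBP letters were in 12 of the 32 (37.5%), against 10.8% of 27025 genes. The 12 were *Saa1*, *Saa2*, *Saa3*, *Saa4*, *Hpx*, *Orm2*, *Lcn2*, *Cp*, *Itih2*, *Ahsg*, *C1s* and *C9*, so 2 of them were called and 10 were not. The STAT letters were in 5 of the 32 (15.6%), namely *Apcs*, *Itih4*, *Masp2*, *C8a* and *Socs3*, against 8.13% of genes. The NF-κB letters were in 0 of the 32, against 1.36% of genes, and the PPAR element in 0 of the 32, against 0.0407%. A match is a run of letters and not a measured binding site, and no match in 250 bases says nothing of sites elsewhere.

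None of the 6 serum amyloid and pentraxin genes was called by limma (4 at an unadjusted p under 0.05), although *Saa3* had the difference of greatest size among the 41. *Saa3* encodes a serum amyloid A that is induced in liver and also made by macrophages. It ran from 7.73 through 8.24 to 9.28 in *Ppara*+/+ and from 8.47 through 9.15 to 9.49 in *Ppara*-/- livers. The spread within *Ppara*+/+ was wide, since mice 5 and 6 (8.88 and 9.28) stood above the other 4, and the genotypes overlapped. The difference was 0.70 ± 0.23 (SE), or 1.62-fold, and was not called (adjusted p = 0.088). *Saa4*, the constitutive serum amyloid A and the neighbour of *Saa3* on chromosome 7, ran from 10.15 through 10.32 to 10.59 and from 10.29 through 10.70 to 10.81 in the same order. Again *Ppara*-/- mouse 1 alone fell within the *Ppara*+/+ range, and the difference of 0.30 was not called (adjusted p = 0.061). *Saa1* and *Saa2*, the main inducible serum amyloids and close copies of each other, had signals far below the array median in both genotypes, from 2.62 to 3.42 and from 3.84 to 4.35. Their differences were -0.17 and -0.10 (adjusted p = 0.43 and 0.61), and such dim signals can understate a change.

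The pentraxins had differences below 0. *Crp*, the C-reactive protein gene, ran from 12.01 through 12.10 to 12.18 in *Ppara*+/+ and from 11.85 through 11.97 to 12.03 in *Ppara*-/- livers. Only *Ppara*-/- mouse 1 reached the *Ppara*+/+ range, and the difference of -0.14 was not called (adjusted p = 0.063). *Apcs*, which encodes serum amyloid P, the main acute phase pentraxin of mice, ran from 11.81 through 12.26 to 12.37 in *Ppara*+/+ and from 11.71 through 11.84 to 12.20 in *Ppara*-/- livers. The genotypes overlapped widely, with a difference of -0.28 (adjusted p = 0.12).

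None of the 6 carriers and metal binders was called by limma (2 at an unadjusted p under 0.05). *Hp*, which binds free haemoglobin, differed by -0.16 (interval -0.40 to 0.07), and *Hpx*, which binds heme, by -0.02 (interval -0.15 to 0.10). *Orm1*, an acid glycoprotein that carries lipophilic compounds, had a wide interval of 0.00 to 0.77 around 0.39 (adjusted p = 0.23). *Orm2*, its close copy, was dim in all livers (3.64 to 3.91) and differed by 0.04. *Lcn2*, which binds bacterial siderophores and is also stored by granulocytes, differed by 0.04 (interval -0.05 to 0.14). None of 13 granulocyte markers was called by limma (3 at an unadjusted p under 0.05), where 7.24% of all genes were called. Their mean signal ranged from 10.34 to 10.56 in *Ppara*-/- and from 10.25 to 10.53 in *Ppara*+/+ livers. *Cp*, the copper-carrying ferroxidase, differed by 0.12 (adjusted p = 0.18).

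None of the 6 protease inhibitors and inter-alpha-trypsin inhibitor chains was called by limma (1 at an unadjusted p under 0.05). *Itih2*, *Itih3* and *Itih4*, of the heavy chain family, differed by 0.00, 0.03 and 0.03, and *Ambp*, which encodes the bikunin light chain, by 0.01. The intervals of these 4 genes all lay between -0.07 and 0.11. *Itih1*, another heavy chain, differed by -0.11 (interval -0.30 to 0.09). *Serpina3n*, an inhibitor of serine proteases that rises in the acute phase, ran from 12.55 through 12.72 to 12.87 in *Ppara*+/+ and from 12.45 through 12.55 to 12.68 in *Ppara*-/- livers. The ranges overlapped, with 3 *Ppara*-/- livers below all *Ppara*+/+ livers, and gave a difference of -0.17 that was not called (adjusted p = 0.12).

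The fetuin *Ahsg*, a mineral-binding glycoprotein abundant in fetal blood, differed by 0.00 (interval -0.07 to 0.08), and its neighbour *Fetub* by -0.13 (interval -0.33 to 0.07). *Lbp*, which delivers bacterial lipopolysaccharide to CD14, ran from 11.60 through 12.04 to 12.08 in *Ppara*+/+ and from 11.59 through 11.66 to 11.93 in *Ppara*-/- livers. *Ppara*+/+ mice 5 and 6 lay among the *Ppara*-/- livers, and the difference of -0.23 was not called (adjusted p = 0.13). *Cd14*, the receptor, differed by 0.02 (interval -0.22 to 0.27).

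The 3 signalling genes on the list were not called by limma (0 at an unadjusted p under 0.05). *Stat3*, the transcription factor downstream of interleukin-6, differed by 0.05 (interval -0.04 to 0.14), and *Socs3*, the inhibitor that STAT3 induces, by -0.07 (interval -0.25 to 0.11). *Il1rn*, the interleukin-1 receptor antagonist, ran from 9.01 through 9.18 to 9.36 in *Ppara*+/+ and from 8.92 through 9.42 to 9.55 in *Ppara*-/- livers. *Ppara*-/- mouse 1 had the lowest value of all 12 livers, and the difference of 0.15 was not called (adjusted p = 0.40).

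The list of 41 was set beside other genes of the same pathways. Of 13 further complement components, limma called 0 (5 at an unadjusted p under 0.05). The C4 genes, close copies of each other, differed by -0.23 (*C4b*, adjusted p = 0.15) and -0.27 (*C4a*, adjusted p = 0.17). Of 19 complement regulators and receptors, limma called 0 (6 at an unadjusted p under 0.05). Over all genes, limma called 7.24%, and 4164 of 19938 had an unadjusted p under 0.05. The 0 calls do not show either list to be unchanged. A list of 20 further acute phase genes, not all of which need rise in mice, held 2 calls. *Serpina10*, the protein Z-dependent protease inhibitor, was higher by 0.16 (adjusted p = 0.021). *Lrg1*, a leucine-rich glycoprotein induced by STAT3, was lower by 0.68 (adjusted p = 0.015), and the genotypes overlapped, at 8.82 to 9.41 in *Ppara*-/- and 9.04 to 10.04 in *Ppara*+/+ livers. *Hamp*, the iron hormone hepcidin, spread from 6.46 to 10.01 in *Ppara*+/+ and from 8.11 upwards in *Ppara*-/- livers, around a median of 9.44, and its difference of 1.64 was not called (adjusted p = 0.076).

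Of 11 genes that fall in the acute phase, *Serpina7*, the thyroxine-binding globulin, alone was called and was lower by 1.99 (adjusted p = 6.7e-05). Of 22 genes of interleukin-6 and STAT3 signalling, 3 were called (13.6%, against 7.24% of all genes), and 5 had an unadjusted p under 0.05. *Il6st*, the gp130 receptor subunit, was lower by 0.19 (adjusted p = 0.037), and *Socs2*, a suppressor of growth hormone signals, was lower by 0.59 (adjusted p = 0.012). *Stat5b*, the main effector of growth hormone in liver, was higher by 0.25 (adjusted p = 0.023). *Il6* was dim in all livers (3.10 to 3.96). Of 23 genes of interleukin-1, TNF and NF-κB signalling, limma called 0, against 7.24% of all genes. An unadjusted p under 0.05 was found in 9 of the 23, against 4164 of all 19938 genes. The median difference of the 23 was 0.12, against 0.01 over all genes. Of 16 coagulation factors, also made by hepatocytes, *F9* alone was called and was lower by 0.30 (adjusted p = 0.03). The share called was 6.25% of these 16, 9.09% of the 11 genes that fall and 10% of the 20 further acute phase genes above.

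Within each genotype the same few livers stood apart in many of these genes. The labels give every fetus an animal number, and those of *Ppara*+/+ mice 5 and 6 are the highest of all 12. The number of *Ppara*-/- mouse 1 is below those of the other 5 *Ppara*-/- livers and falls among those of *Ppara*+/+ mice 1 to 4. What the numbers stand for is not given in the labels, and the livers were singled out after their values were seen, so the following counts carry no test. *Ppara*+/+ mice 5 and 6 both lay below the other 4 *Ppara*+/+ livers in 18 of the 41 genes (43.9%), against 10.7% of all genes. They both lay above in 5 (12.2%), against 11.2%, and these were *Saa3*, *Saa4*, *C8b*, *C8g* and *C9*. *Ppara*-/- mouse 1 lay above the other *Ppara*-/- livers in 20 of the 41 (48.8%), against 22.1% of all genes, and below them in 6 (14.6%), against 22.7%. Those 6 were the same 5 genes and *Il1rn*.

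**Figure D4:**
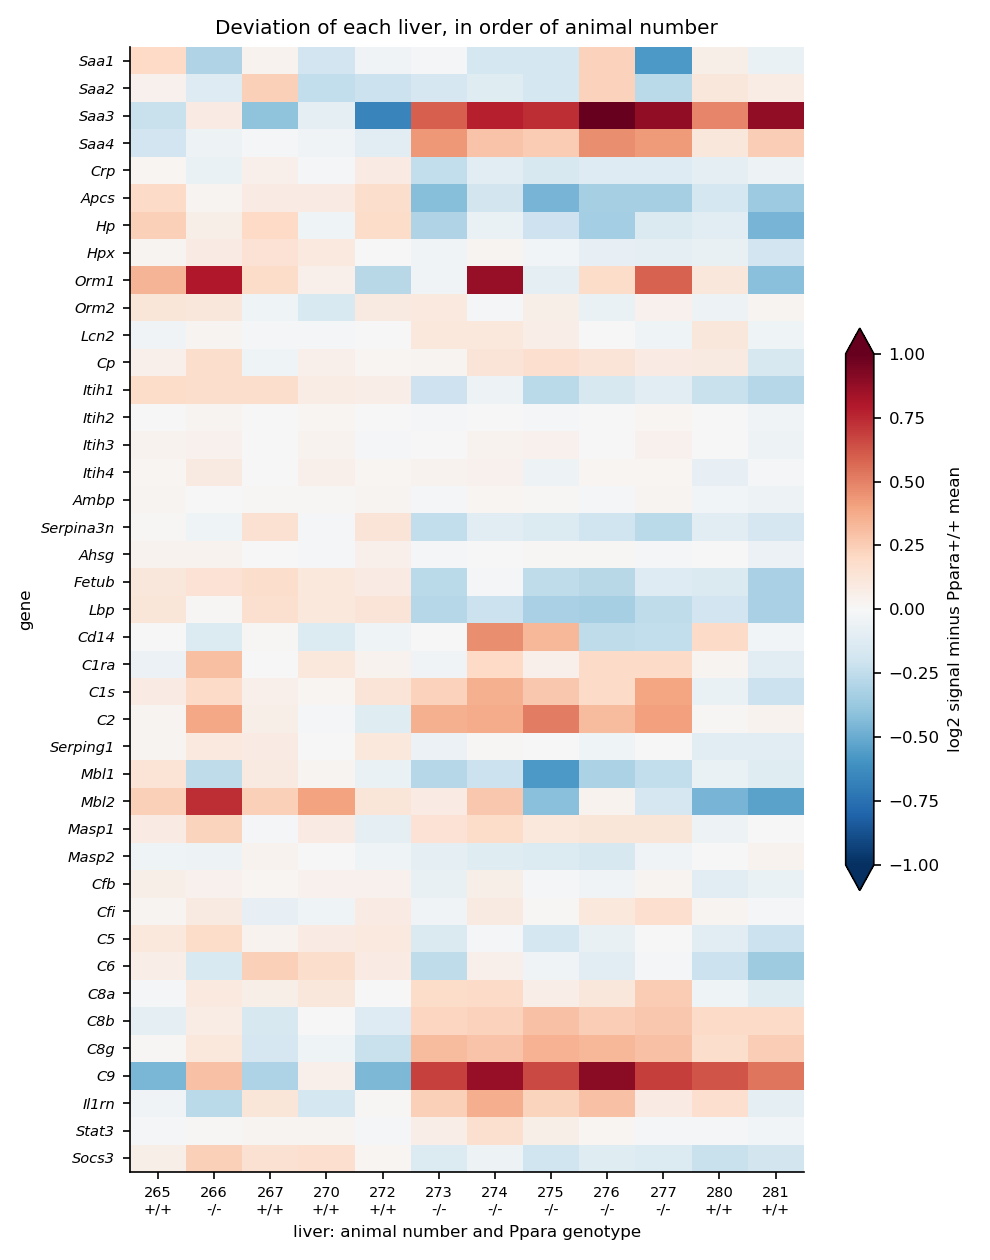
Log2 signal of each liver minus the *Ppara*+/+ mean (colour, capped at 1 either way) for the 41 genes (y axis), with the 12 livers in order of animal number and marked by genotype (x axis). The last 2 columns (*Ppara*+/+ mice 5 and 6) share the colours of the 5 columns before them (*Ppara*-/- mice 2 to 6) in *Saa3*, *C9*, *C8g*, *Apcs* and *Lbp*, while *C2* follows the genotype.

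*Saa3* shows the pattern plainly. The 4 *Ppara*+/+ livers with low numbers stood at 7.73 to 8.30 and *Ppara*-/- mouse 1 at 8.47. The 5 other *Ppara*-/- livers stood at 8.99 to 9.49, and *Ppara*+/+ mice 5 and 6 at 8.88 and 9.28. In *C9* the 4 low-numbered *Ppara*+/+ livers stood at 6.92 to 7.43, mice 5 and 6 at 8.01 and 7.91, and the 5 other *Ppara*-/- livers at 8.04 to 8.28. *Mbl2* was different again, with 7.72 to 8.00 in the low-numbered *Ppara*+/+ livers, 7.13 and 7.06 in mice 5 and 6, and 8.34 in *Ppara*-/- mouse 1. The 5 other *Ppara*-/- livers stood at 7.18 to 7.87, all above mice 5 and 6 and reaching into the range of the low-numbered *Ppara*+/+ livers. *C2* did not share the pattern. Mice 5 and 6 stood at 9.12 and 9.15 within the 8.99 to 9.17 of the other *Ppara*+/+ livers, and *Ppara*-/- mouse 1 stood at 9.50 within the 9.43 to 9.62 of the others.

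**Figure D5:**
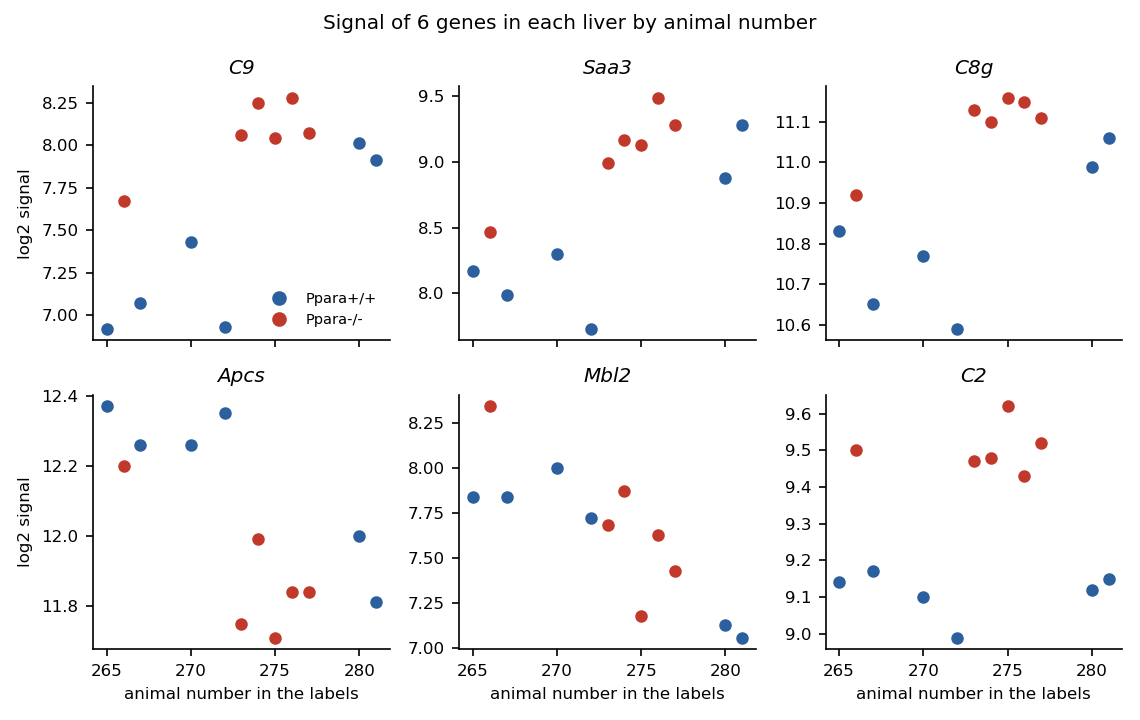
Log2 signal (y axes) of 6 genes in each of the 12 livers against the animal number in the labels (x axes), with colours for genotype. In *C9*, *Saa3* and *C8g* the 2 *Ppara*+/+ livers at the right lie near *Ppara*-/- mice 2 to 6, in *Apcs* and *Mbl2* they lie low, and in *C2* they lie with the other *Ppara*+/+ livers.

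Comparisons that took the animal number into account gave unlike results for the calls. The 6 lowest numbers were *Ppara*+/+ mice 1 to 4 and *Ppara*-/- mice 1 and 2. This boundary differs from the grouping above, where *Ppara*-/- mouse 2 was counted with mice 3 to 6. Mouse 2 stood at 8.06 in *C9* and 8.99 in *Saa3*, and mouse 1 at 7.67 and 8.47. By the grouping above, *Ppara*-/- mice 2 to 6 exceeded *Ppara*+/+ mice 5 and 6 by 0.18 in *C9* and 0.13 in *Saa3*. With the 6 lowest and the 6 highest numbers as a block, *C2* (0.38, adjusted p = 0.00036), *C1s* (0.29, adjusted p = 0.019) and *C9* (0.49, adjusted p = 0.042) were higher, where 2.12% of all genes were higher. *Mbl1* was lower (-0.28, adjusted p = 0.028), where 2.58% of all genes were lower, and *C8g* was not called (0.21, adjusted p = 0.079). The *C2* difference was 0.39 within the lowest 6 numbers and 0.38 within the highest 6. The *Mbl1* difference was -0.31 and -0.24, that of *C1s* 0.14 and 0.45, that of *C9* 0.77 and 0.20, and that of *C8g* 0.31 and 0.10. None of these within-block differences was called (adjusted p of 0.051 to 0.62), each block having 4 livers of one genotype and 2 of the other. *Saa3* differed by 0.68 within the lowest and 0.19 within the highest numbers, and *Lbp* by -0.27 and -0.02.

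Leaving out single livers moved the calls in the same genes. Without *Ppara*-/- mouse 1, 8 of the 41 genes were higher, where 6.89% of all genes were, and 4 were lower, where 5.75% were. *Saa3* (0.82, adjusted p = 0.031), *Saa4* (0.38, adjusted p = 0.0049), *C8b* (0.25, adjusted p = 0.029) and *Il1rn* (0.24, adjusted p = 0.036) joined the higher genes. *Apcs* (-0.35, adjusted p = 0.031), *Crp* (-0.16, adjusted p = 0.037) and *Lbp* (-0.28, adjusted p = 0.046) joined *Mbl1* among the lower genes. Without *Ppara*+/+ mouse 6, *Saa3*, *Saa4* and *C8b* were again higher and *Apcs*, *Lbp* and *Serpina3n* lower. Without *Ppara*+/+ mouse 5, *C8b* joined the higher and *Crp* the lower genes. These genes are therefore given as not called, with their differences in all 12 livers as stated above.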

How the data were processed

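Total RNA of each liver was extracted with TRIzol and silica columns, kept where its integrity number exceeded a minimum set by the authors, and hybridised to an Affymetrix Mouse Gene ST array. The authors deposited log2 values made by RMA, which corrects background, normalizes between arrays and summarises the probes of each probeset. Neither the RMA version nor the genome build behind the probesets was given in the sources used here. The table held 35556 probesets on 12 arrays, with values of 1.95 to 13.91. Arrays have no read depth, and their number limits the precision.

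Probesets with exactly 1 gene symbol were used (21789), taking the one with the highest mean for each of 999 genes that had more, which gave 19938 genes, dim ones included. Among the 41 genes *Socs3* alone had over 1 probeset. Of the 43 listed genes 39 matched by symbol and 2 by a RefSeq synonym. Genotypes were compared with limma 3.58.1 (R 4.3.3), using lmFit, eBayes and two-sided p-values without covariates. The Benjamini-Hochberg adjustment covered all genes, with a threshold of 0.05. The procedure was tested on simulated arrays. Their noise was drawn independently for each gene and array, so they say nothing of shared litters or of shifts common to many genes. Intervals are 95% intervals of that fit. Other settings were renewed quantile normalization, leaving out the dimmest 25% of genes, averaging a gene's probesets, an intensity trend with robust eBayes, weighting the arrays, a block for the mouse number, a score of fetal sex, the animal number in 2 blocks and within each block, dropping each liver in turn, and an exact Mann-Whitney test. Python 3.11.15 with pandas 2.3.3 made the tables and searches, and matplotlib 3.10.9 drew the figures.

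The genes, the pathway and marker lists and the settings were chosen with earlier results of these data known. By the rule for named genes, genes called in all 12 livers or with any 1 left out were given with lowest, median and highest values, other listed genes by difference or range, and pathway lists by counts with the called genes named. A few genes outside this rule (*Mbl2*, *Masp1*, *C1qa*, *C1qb*, *C1qc*, *C4a*, *C4b*, *Hamp* and *Il6*) were described after their values were seen.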

Additional observations from a re-analysis of the deposited data

Results flagged for a closer look

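In 82 groups of 6 livers (41 genes in each genotype), 9 held a liver far from the other 5, meaning that its gap to the nearest liver, as a share of the whole range of the group, exceeded Dixon's 95% critical value. Chance alone flags about 1 group in 20. *Ppara*-/- mouse 1 was the liver in 4 of the 9. It was highest for *Lbp* (11.93, next 11.71) and *Socs3* (7.92, next 7.63), and lowest for *C8b* (12.46, next 12.60) and *C8g* (10.92, next 11.10). Among the called genes, *Mbl1* was lowest in *Ppara*-/- mouse 4 (9.21, next 9.47) and *C2* was lowest in *Ppara*+/+ mouse 4 (8.99, next 9.10). *Saa2* was highest in *Ppara*-/- mouse 5 (4.34, next 3.99). *Lcn2* was highest in *Ppara*+/+ mouse 5 (12.58, next 12.46), and *Itih2* was lowest in *Ppara*+/+ mouse 6 (12.93, next 12.96).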

How the results depend on the processing

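The comparison of all 12 livers called 4 of the 41 genes higher and 1 lower, among 682 genes higher and 761 lower. Members called higher numbered 7 with renewed quantile normalization, 7 without the dimmest genes and 9 with array weights, and fell to 2 with the sex score. Members called lower numbered 2 without the dimmest genes, 2 with the intensity trend and 5 with array weights. With the intensity trend *C9* was no longer called (adjusted p = 0.068). Array weights called 1286 genes higher and 1457 lower, and the sex score 401 and 449. With the animal number blocks 422 genes were higher. Within the 6 lowest numbers 30 genes were higher and 163 lower, and within the 6 highest 117 and 106, with 0 of the 41 called by limma in either. Of the 41, 11 and 7 had an unadjusted p under 0.05 there. The exact Mann-Whitney test called 0 genes and 0 members, its smallest adjusted p being 0.06, although 3683 genes and 18 members had an unadjusted p under 0.05. *C2*, *C1s* and *Mbl1* had this value of 0.06. Genotypes that do not overlap give the lowest p-value of this rank test, so no gene could have been called by it here. Leaving out each liver in turn gave 2 to 8 members higher and 1 to 4 lower, and 384 to 1374 genes higher and 447 to 1147 lower, with the highest counts of all genes and the 8 and 4 members without *Ppara*-/- mouse 1. As a replicate block, the mouse number gave 8 members higher and 1 lower (796 and 823 genes). The main comparison did not take the numbers as pairs. Deviations of same-numbered livers correlated at 0.0194 to 0.39. Livers with unlike numbers were not compared in this way, so these values do not show whether the numbers are pairs. No called difference changed sign. The 13 genes called in all 12 livers or with 1 left out were each fitted under 23 other settings. The call was unchanged in 231 pairs of gene and setting, added in 31 and removed in 37, and the causes were not tested. The removed pairs include those of the exact Mann-Whitney test, which could call no gene. Outside these 13, *Masp1* was called in 5 and *C8a* in 3 of the 21 limma settings on 11 or 12 livers. The number of arrays, 6 per genotype, limits the precision, and litter could not be fitted.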
